A study of Rattus norvegicus with 12 samples.

Results

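Chronic intermittent ethanol (CIE) vapor was followed here through the insulin-like growth factor (IGF) system of the central nucleus of the amygdala (CeA). The genes were 2 ligands (*Igf1* and *Igf2*), 3 receptors (*Igf1r*, *Igf2r* and *Insr*) and 5 binding proteins (*Igfbp2* to *Igfbp6*), chosen by symbol as 10 of the 37209 genes listed. All 10 passed the filter on low counts, which left 20944 genes tested. The samples were poly-A RNA-Seq libraries of CeA punches from wild type Sprague Dawley rats, all male and 14 to 16 weeks old, with 1 library per rat. The 6 CIE rats had inhaled ethanol vapor for 14 h per day, with air for the other 10 h, over 5 to 7 weeks, and were killed at the end of the last vapor session. The 6 Control rats had breathed air continuously and were otherwise handled in a similar way. Rats were housed 3 per cage, and cage is not given per sample in the sources used here. Rats keep the numbers of the sample labels, 1 to 6 for CIE and 7 to 12 for Control. An effect that follows this order cannot be told apart from CIE.

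IGF1 and IGF2 are small secreted proteins related to insulin, and both signal through the receptor tyrosine kinase IGF1R. The closely related insulin receptor also binds IGF2 in one of its splice forms. IGF2R, the cation-independent mannose 6-phosphate receptor, takes up IGF2 for breakdown and has no kinase of its own. The binding proteins hold IGFs outside cells and set how much reaches a receptor. In the adult rodent brain, *Igf2* mRNA is known mainly from the meninges, the choroid plexus and the vessel wall, whereas *Igf1r* and *Insr* are expressed widely in neurons and glia.

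Total counts per rat lay between 61978486 and 78441691 in the CIE group and between 39082548 and 95647601 in the Control group. Levels are given as CPM, counts scaled to a common library size, after TMM normalization. CPM does not account for transcript length, so levels are compared between rats and not between genes. The groups were compared by a two-sided quasi-likelihood F test in edgeR, and FDR is the Benjamini-Hochberg adjusted p value over all 20944 genes. Log2 fold changes are CIE relative to Control, and are negative where the CIE rats had less. The label of the tissue was read against CeA neuron genes. *Gad1*, which makes GABA, was between 535 and 680 CPM in the CIE group, and *Prkcd*, which marks a class of CeA neurons, was detected in every rat, at 22.7 CPM or more. Other genes of the CeA list varied widely within both groups, *Scn4b* from 19.7 to 487 CPM in CIE rats and from 13.4 to 407 CPM in Control rats, and *Penk* from 267 to 1658 CPM in Control rats. Control rat 10, the highest Control rat for both, also stood apart over all genes. Its mean chi-square per gene against the other Control rats was 96.6 to 215, where the other Control pairs lay between 17.5 and 59.2 and the CIE pairs between 34.6 and 141. Without Control rat 10, *Igf2* had an FDR of 0.0362, *Igf1r* a nominal p of 0.0160 and *Insr* a nominal p of 0.0895. The summed level of the CeA list was also highest of the Control group in this rat, at 3642 CPM. In the CIE group it was highest in CIE rat 2, at 3251 CPM. Without CIE rat 2, *Igf2* did not pass 5% FDR.

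*Igf2* fell in the CIE group, and it was the single IGF gene to pass 5% FDR. The genes of 2 receptors, *Igf1r* and *Insr*, had higher means in the CIE group at nominal p values below 0.05 that did not pass 5% FDR. *Igf1*, *Igf2r* and the 5 binding protein genes did not pass the nominal threshold. Thus 3 of 10 genes had a nominal p value below 0.05, where 8.31% of all genes tested did (4.0% higher and 4.31% lower in CIE). At 5% FDR it was 1 of 10, where 0.363% of all genes passed (0.105% higher and 0.258% lower). The median log2 fold change of the 10 genes was -0.04, against 0.00 over all genes tested.

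**Figure D1:**
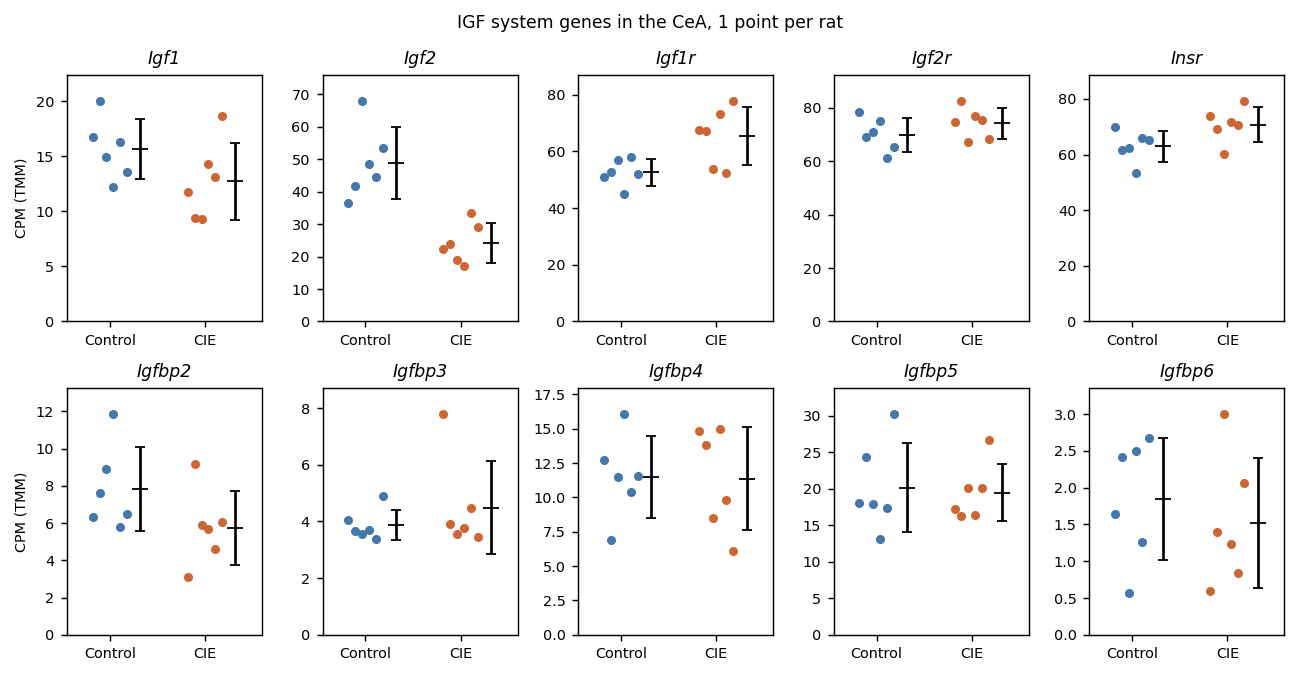
CPM of the 10 IGF genes (vertical axes, each from 0) in Control and CIE rats, with 1 point per rat and the group mean and SD beside the points (n = 6). The *Igf2* values of the 2 groups do not overlap, while those of every other gene do.

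Upstream sequence is shown for *Igf2*, *Igf1r* and *Insr*, the IGF genes past the nominal threshold, to give their promoters. The 250 bases before each listed start were taken from RefSeq on the GRCr8 build, not the Rnor_6.0 build of the counts. RefSeq had such a window for each of the 10 genes, and 2 for *Igf2*. Capitals mark GGGCGG (the GC box bound by Sp1), TATAAA (the TATA box) or GTAAACA (a core site of forkhead factors such as FOXO1), each searched on both strands. No overlap between these motifs was found in the windows printed.
Igf2, first start, chr1:207253981-207254230, minus strand: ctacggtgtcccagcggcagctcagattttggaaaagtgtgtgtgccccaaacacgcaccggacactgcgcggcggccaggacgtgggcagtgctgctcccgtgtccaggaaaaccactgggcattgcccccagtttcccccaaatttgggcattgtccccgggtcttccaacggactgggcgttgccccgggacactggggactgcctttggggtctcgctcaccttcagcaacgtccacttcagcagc
Igf2, second start, chr1:207250476-207250725, minus strand: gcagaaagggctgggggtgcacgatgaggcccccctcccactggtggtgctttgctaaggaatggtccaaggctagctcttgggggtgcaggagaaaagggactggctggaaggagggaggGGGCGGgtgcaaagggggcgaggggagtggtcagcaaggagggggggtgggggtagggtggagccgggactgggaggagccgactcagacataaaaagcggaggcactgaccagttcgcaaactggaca
Igf1r, chr1:130959747-130959996, plus strand: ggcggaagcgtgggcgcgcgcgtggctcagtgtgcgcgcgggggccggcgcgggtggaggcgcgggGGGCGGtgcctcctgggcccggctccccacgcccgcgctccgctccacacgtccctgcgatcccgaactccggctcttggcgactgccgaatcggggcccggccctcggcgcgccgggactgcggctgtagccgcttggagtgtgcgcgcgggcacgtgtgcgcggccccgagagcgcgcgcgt
Insr, chr12:6128804-6129053, minus strand: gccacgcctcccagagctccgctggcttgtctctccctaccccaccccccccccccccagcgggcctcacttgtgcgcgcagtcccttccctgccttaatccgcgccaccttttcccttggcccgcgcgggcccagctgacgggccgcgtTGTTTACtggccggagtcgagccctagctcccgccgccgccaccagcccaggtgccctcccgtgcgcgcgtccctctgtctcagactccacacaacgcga

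The *Igf1r* window was 79.6% G or C, more than 98.8% of 33469 such windows, whose median was 51.2%. It held 1 GC box, as did the window of the second *Igf2* start, and 30.5% of all windows held at least 1. The *Insr* window was 71.2% G or C and held 1 forkhead core, written TGTTTAC on the strand shown, which 3.21% of all windows held. Among the other IGF genes, *Igf2r* held 2 GC boxes and *Igfbp2* held 1. *Igfbp6* held a forkhead core as well, and *Igfbp4* was the 1 gene of the 10 with a TATAAA, which 12.9% of all windows held. These are matches of letters in a fixed window, and binding was not measured.

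Of the ligands, *Igf2* ranged from 17.2 to 33.4 CPM in CIE rats (median 23.0) and from 36.4 to 67.9 CPM in Control rats (median 46.5). The ranges did not meet, and the nearest rats were CIE rat 5 and Control rat 7. Means over 6 CIE and 6 Control rats were 24.1 ± 6.17 and 48.8 ± 11.02 CPM (± SD), a ratio of 0.495. This gave a log2 fold change of -1.02 with an SE of 0.17 (nominal p 4.35e-05, FDR 0.0207), at rank 44 of 20944 genes. An exact permutation test of the group means gave p = 0.00216, the smallest that 6 rats against 6 allow. Over all genes tested, 0.893% showed no overlap between the groups (0.339% higher and 0.554% lower in CIE). When single rats were left out, the log2 fold change stayed between -1.13 and -0.90, and the FDR lay between 0.0206 and 0.0642. It was above 5% without CIE rat 1 (0.0642), CIE rat 2 (0.0578), CIE rat 4 (0.0510) or Control rat 9 (0.0517), the rat with the highest *Igf2* of all.

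*Igf1*, whose product is made in the brain by neurons, microglia and astrocytes, was between 9.26 and 18.6 CPM in the CIE group (median 12.4) and between 12.2 and 20.01 CPM in the Control group (median 15.6). The groups overlapped, with CIE rat 6 and Control rat 8 the highest of their groups. The log2 fold change was -0.30 with a 95% confidence interval from -0.66 to 0.07 (nominal p 0.101, FDR 0.700). CIE rats 2 and 3 had nearly the same level, at 9.35 and 9.26 CPM. Without CIE rat 6 the log2 fold change of *Igf1* was -0.44 (edgeR, nominal p 0.0106).

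Among the receptors, *Igf1r*, the gene of the IGF1 receptor, was between 52.5 and 77.7 CPM in the CIE group (median 67.3) and between 44.9 and 58.1 CPM in the Control group (median 52.4). CIE rats 1, 2, 4 and 6 were above every Control rat, and CIE rats 3 and 5 lay within the Control range. Means over 6 CIE and 6 Control rats were 65.3 ± 10.3 and 52.7 ± 4.74 CPM (± SD), a ratio of 1.24. This gave a log2 fold change of 0.31 with an SE of 0.10 (nominal p 0.00831, FDR 0.354), and the exact permutation p of the means was 0.0281. Leaving out any of the 12 rats kept the nominal p below 0.05, with an FDR of 0.158 or more.

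*Insr*, the insulin receptor gene, was between 60.0 and 79.3 CPM in the CIE group (median 71.2) and between 53.3 and 69.8 CPM in the Control group (median 63.8). CIE rats 1, 4, 5 and 6 exceeded the whole Control range, though rat 5 exceeded Control rat 7 by less than 1 CPM. Means over 6 CIE and 6 Control rats were 70.8 ± 6.31 and 63.0 ± 5.56 CPM (± SD). The log2 fold change came to 0.17 with an SE of 0.08 (nominal p 0.0461, FDR 0.592), and the exact permutation p was 0.0498. With 1 rat left out, the nominal p was below 0.05 for 3 of 12 rats and reached 0.103, without CIE rat 6.

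*Igf2r*, the clearance receptor gene, was between 67.1 and 82.6 CPM in the CIE group (median 75.1) and between 61.1 and 78.6 CPM in the Control group (median 69.9). The groups overlapped over most of their range. The log2 fold change was 0.08, with a 95% confidence interval from -0.07 to 0.24 (nominal p 0.270).

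The counts of 2 genes within a library do not depend on the scaling between libraries. For every 100 *Igf1r* counts, the CIE rats had 23.5 to 63.6 *Igf2* counts (mean 38.1 ± 13.5, SD, n = 6) and the Control rats 71.3 to 119 (mean 92.8 ± 19.6, SD, n = 6). These ranges did not overlap, CIE rat 5 being the highest of its group and rat 4 the lowest. For every 100 *Insr* counts, the CIE rats had 74.4 to 102 *Igf1r* counts and the Control rats 73.2 to 91.4, and these overlapped. Both ratios were formed after the levels were known and are given without a test. *Igf2* alone already showed no overlap, and the higher mean of *Igf1r* in the CIE group adds to the first contrast.

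**Figure D2:**
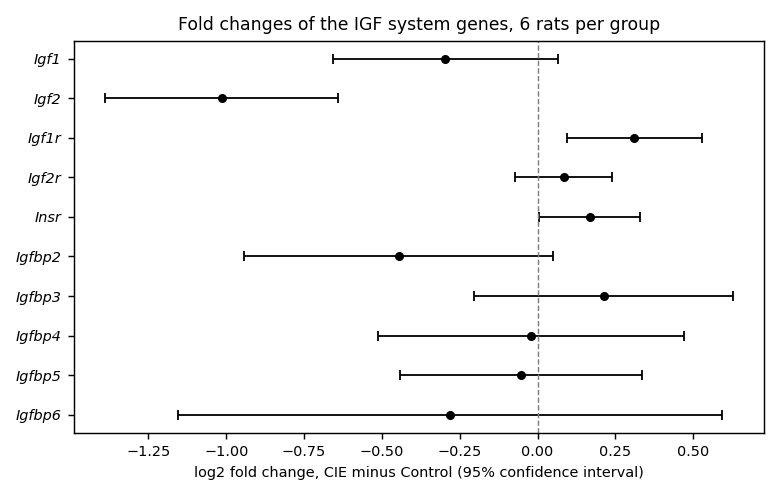
Log2 fold change of each IGF gene (horizontal axis, CIE relative to Control) with its 95% confidence interval from the edgeR fit. The intervals of *Igf2* (-1.39 to -0.64) and *Igf1r* (0.09 to 0.53) lie apart from 0, that of *Insr* ends next to it, and those of the other 7 genes cross it.

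Of the binding proteins, *Igfbp2*, a binding protein abundant in cerebrospinal fluid, was between 3.12 and 9.16 CPM in the CIE group (median 5.77) and between 5.76 and 11.8 CPM in the Control group (median 7.06). CIE rats 1, 4 and 5 were below every Control rat, while CIE rat 2 was above all Control rats but rat 10. Its log2 fold change was -0.45, with a 95% confidence interval from -0.94 to 0.05 (nominal p 0.0745, FDR 0.653). The nominal p was 0.0106 without CIE rat 2.

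*Igfbp3*, the main carrier of IGFs in serum, was between 3.44 and 7.78 CPM in the CIE group (median 3.84) and between 3.38 and 4.89 CPM in the Control group (median 3.69). CIE rat 1 alone stood above the Control range. The log2 fold change was 0.21 with all rats (95% confidence interval -0.20 to 0.63) and -0.02 without that rat.

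*Igfbp4*, whose product is cut by the protease PAPP-A to free IGF, was between 6.08 and 14.999 CPM in the CIE group (median 11.8) and between 6.91 and 16.1 CPM in the Control group (median 11.5). Its log2 fold change was -0.02 (95% confidence interval -0.51 to 0.47), and its sign changed when single rats were left out and under limma-voom. In the CIE group rats 1, 2 and 4 were at 13.8 CPM or more and rats 3, 5 and 6 at 9.82 CPM or less.

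*Igfbp5*, which can bind to extracellular matrix, was between 16.3 and 26.6 CPM in the CIE group (median 18.6) and between 13.1 and 30.2 CPM in the Control group (median 17.97). The Control group spanned the whole CIE range. Its log2 fold change was -0.05 (95% confidence interval -0.44 to 0.34), also with a sign that depended on single Control rats. *Igfbp6*, which prefers IGF2 to IGF1, was scarce, with 39 to 194 counts per CIE rat and 39 to 233 per Control rat. It was between 0.600 and 2.999 CPM in the CIE group and between 0.561 and 2.67 CPM in the Control group, and its log2 fold change of -0.28 had the widest 95% confidence interval of the 10 genes, from -1.16 to 0.59.

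**Figure D3:**
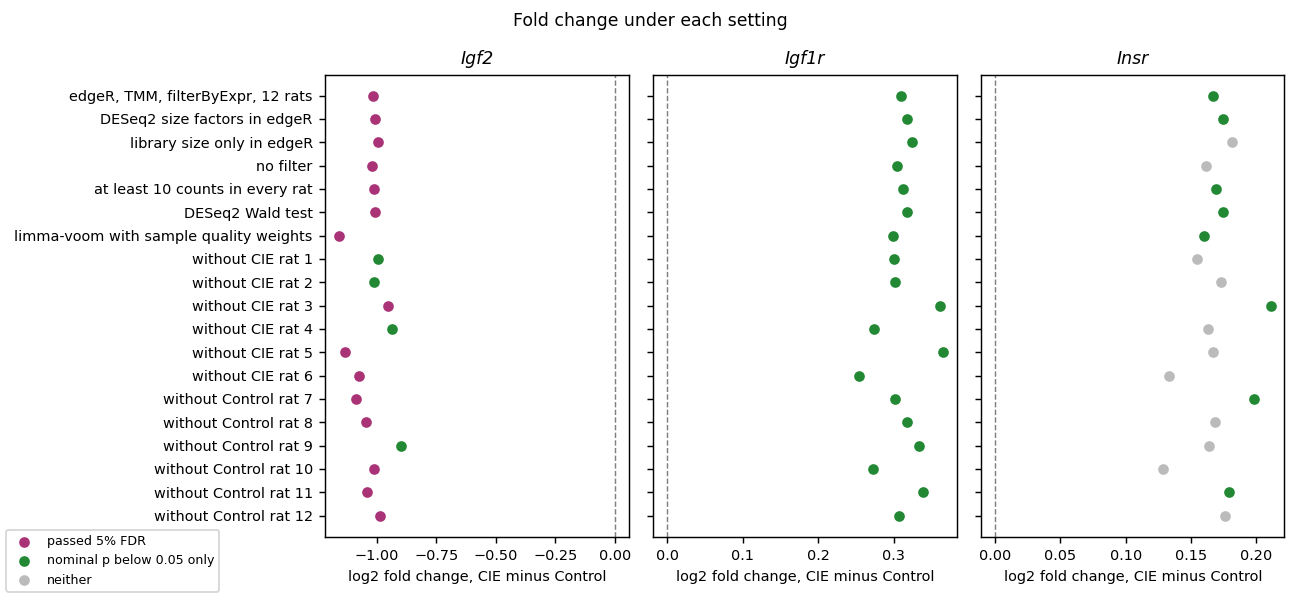
Log2 fold change of *Igf2*, *Igf1r* and *Insr* (horizontal axes, which differ between panels) in the fit with all 12 rats and in 18 alternatives, 12 of which leave out 1 rat, colored by the threshold passed. *Igf2* was lower throughout and missed 5% FDR without CIE rats 1, 2 or 4 or Control rat 9, and *Igf1r* and *Insr* were higher throughout without reaching 5% FDR.

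Markers of the cells known to hold *Igf2* were read beside it. Over all genes tested, 8.31% had a nominal p value below 0.05 and 0.363% passed 5% FDR in edgeR. Of 15 meningeal fibroblast markers, 5 had a nominal p value below 0.05, all lower in the CIE group, and 2 passed 5% FDR, *Col3a1* (log2 fold change -1.07, FDR 0.0243) and *Col1a1* (-1.04, FDR 0.0270), both fibrillar collagens. With a rat left out, each of these collagens was above 5% FDR in 7 of 12 fits. The median log2 fold change of the list was -0.37. The summed level of the 15 markers was 43.9 to 90.6 CPM in the CIE group and 83.0 to 120 CPM in the Control group. *Col1a1*, *Col3a1* and *Col1a2* made up most of the Control mean, at 25.1, 18.8 and 12.4 of 92.3 CPM. In CIE rats their means were 12.2, 8.90 and 7.26 of 59.9 CPM. The difference between the groups in the sum therefore mostly follows these collagens. CIE rat 6, at 90.6 CPM, was the only CIE rat whose sum lay within the Control range. In this rat *Igf2* (29.1 CPM), *Col1a1* (18.4 CPM) and *Col3a1* (13.1 CPM) were each below all Control rats, as in the other CIE rats. These are genes without overlap between the groups, so this holds for every CIE rat. Other markers of the list were above every Control rat in CIE rat 6. Among them were *Dcn* (9.62 CPM, Control at most 7.31), *Slc6a13* (6.73, at most 6.51) and *Slc13a4* (7.28, at most 6.12). *Dcn*, another defining marker, had a log2 fold change of -0.01. The part of fibroblast content in the *Igf2* result was not tested. In bulk tissue, fewer cells of a type and less RNA per cell cannot be told apart.

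**Figure D4:**
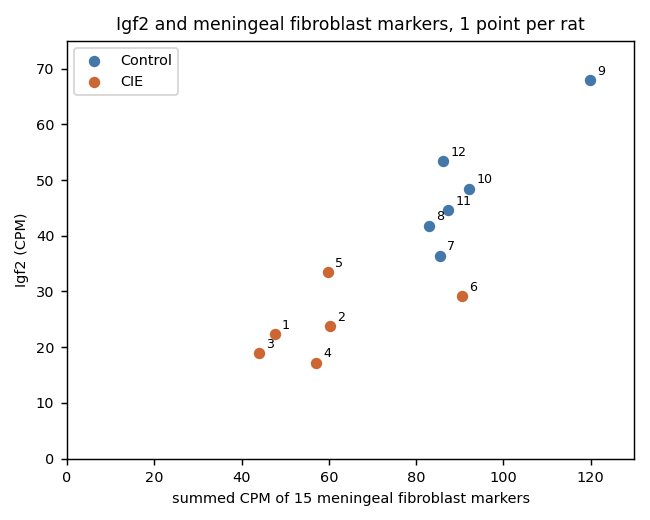
*Igf2* level (vertical axis, CPM) against the summed CPM of 15 meningeal fibroblast markers (horizontal axis), with 1 numbered point per rat. The difference between the groups in this sum mostly follows the collagens *Col1a1*, *Col3a1* and *Col1a2*. CIE rats other than rat 6 lie below both Control ranges, and CIE rat 6 lies at 90.6 CPM of the summed markers and 29.1 CPM of *Igf2*. Its levels of the called markers *Col1a1* and *Col3a1*, like its *Igf2*, were below all Control rats. Its levels of other markers, *Dcn*, *Slc6a13* and *Slc13a4* among them, were above all Control rats.

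Of 12 choroid plexus markers 8 were tested. *Enpp2* alone had a nominal p value below 0.05 (log2 fold change -0.49, FDR 0.461), where 8.31% of all genes tested did. *Enpp2* is also expressed in oligodendrocytes. The summed level was 122 to 228 CPM in the CIE group and 168 to 266 CPM in the Control group. *Enpp2* made up most of it, with a mean of 135 of 162 CPM in CIE rats and 190 of 216 CPM in Control rats. The sum therefore mostly follows this gene. The defining markers *Ttr* and *Kcnj13* were listed at 0 counts in every rat, and *Folr1* and *Otx2* did not pass the filter. A row at 0 in every rat was not read as absence. Of 12 endothelial markers in the table, 6 had a nominal p value below 0.05, all lower, and *Kdr*, the VEGF receptor 2, passed 5% FDR (-0.92, FDR 0.0116), followed by *Eng* (-0.41, FDR 0.164). The endothelial markers at 5% FDR were 2 in DESeq2 (*Eng* and *Kdr*) and 4 in edgeR without CIE rat 6 (*Eng*, *Flt1*, *Kdr* and *Pecam1*). Of all genes, 273 and 154 passed in those fits, against 76 in edgeR with all rats. Of 10 mural cell markers tested, 6 had a nominal p value below 0.05, all lower, and *Kcnj8*, a potassium channel of pericytes, passed 5% FDR (-0.96, FDR 0.0300) with all rats and missed it in 7 of 12 fits with a rat left out. *Pdgfrb* was next (-0.45, FDR 0.0758) and passed in DESeq2, in limma-voom and in edgeR without CIE rat 6 (FDR 0.0131). Summed, the endothelial markers were at 272 to 387 CPM in the CIE group and 317 to 406 CPM in the Control group, and the mural markers at 178 to 281 and 222 to 254 CPM.

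In the lists for cells that hold the receptors, those of myelinating oligodendrocytes passed the nominal threshold for 10 of 11 genes, all lower, with a summed level of 5609 to 13686 CPM in CIE rats and 8654 to 16203 CPM in Control rats. At 5% FDR 0 passed in edgeR, while 4 did in both DESeq2 and limma-voom, *Ugt8* (edgeR -0.96, FDR 0.0727) and *Cldn11* (-0.77, FDR 0.153) among them. *Igf1r* and *Insr* had higher means in the CIE group. By rat, CIE rat 6 had the highest myelin sum, *Igf1r* (77.7 CPM) and *Insr* (79.3 CPM) of its group. CIE rat 3 had the lowest sum and *Insr* (60.0 CPM), and CIE rat 5 the lowest *Igf1r* (52.5 CPM). The Control group did not show this order. Control rat 8, with the highest sum, had *Igf1r* at 52.8 and *Insr* at 61.7 CPM. Control rat 12, with the lowest sum, had 52.1 and 65.1 CPM. Control rat 10, with a sum of 15154 CPM, had the lowest *Igf1r* (44.9 CPM) and *Insr* (53.3 CPM) of its group. For neurons 1 of 8 markers passed the nominal threshold (*Tubb3*, lower), and the summed level was 4267 to 4735 CPM in the CIE group and 4234 to 4746 CPM in the Control group. For astrocytes 3 of 11 did (*Aqp4* lower and *Gjb6* higher among them), for oligodendrocyte precursors 1 of 6 (*Olig1*), for microglia 1 of 10 (*Cx3cr1*) and for CeA neurons 2 of 10 (*Crh* and *Nts*), none at 5% FDR in edgeR with all rats. In edgeR with all rats, 8.31% of all genes tested passed the nominal threshold and 0.363% passed 5% FDR. Without CIE rat 6, *Olig1* (FDR 0.0458) and *Cx3cr1* (FDR 0.0450) passed in edgeR, as *Cx3cr1* did in limma-voom, and the myelin markers at 5% FDR were 5. Of all genes, 273 passed 5% FDR in DESeq2, 234 in limma-voom and 154 in edgeR without CIE rat 6. The part of cell content in the receptor levels was not tested.

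The genes whose levels ran most like *Igf2* across the 12 rats were *Lims2*, *Col3a1* and *Klhl35*, ranked by Pearson's correlation of log2 CPM over all genes tested. The coefficients were 0.95, 0.94 and 0.93, and 0.80, 0.77 and 0.74 once the group means were removed, and Spearman's rho was 0.94, 0.95 and 0.92. *Lims2*, which codes for a focal adhesion protein, passed 5% FDR on its own (log2 fold change -0.65, FDR 0.0134). Most like *Insr* were *Kmt2a*, a histone methyltransferase gene, *Tsc1*, which restrains mTOR downstream of the insulin receptor, and *Gltscr1l*, at 0.96, 0.96 and 0.95. Most like *Igf1r* were LOC100912140, *Limk2* and LOC103692712, at 0.90, 0.90 and 0.89. These coefficients are the highest over all genes, all share the same 12 libraries and depths, and are given as a description without a p value.

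Around the IGF genes, the GRCr8 annotation places *Igfbp2* next to *Igfbp5* and *Igfbp1* next to *Igfbp3*, with *Ins2* near *Igf2* and LOC102548568 between them. *Igfbp2* and *Igfbp5* had log2 fold changes of -0.45 and -0.05. *Ins2* was listed at 0 counts in every CIE rat and at most 1 in a Control rat, and *Ins1* had at most 3. *H19*, the imprinted noncoding RNA of the *Igf2* locus, had at most 7 counts in a rat and was not tested. *Igfbp1*, a binding protein known mainly from liver, had at most 12 counts.

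Further along the pathway, 70 of 78 listed genes were tested, and 4 (5.71%) had a nominal p value below 0.05, against 8.31% of all genes. At 5% FDR 0 passed in edgeR, DESeq2 or limma-voom, where 4, 4 and 14 were at the nominal threshold. The 14 in limma-voom were 20% of the list, against 17.2% of all genes in that fit. The 4 in DESeq2 were 5.71%, against 9.21%. These shares were not tested against those of all genes, and those of edgeR and DESeq2 rest on 4 genes each. The median log2 fold change of the 70 genes in edgeR was 0.02. Among the other ligands, receptors and carriers 0 of 6 tested passed the nominal threshold, among them *Igfbp7*, with means over 6 CIE and 6 Control rats of 63.0 ± 5.69 and 68.6 ± 9.66 CPM (± SD). Of 9 tested proteases, inhibitors and matrix partners of the binding proteins, *Vtn*, the gene of vitronectin, was lower at a log2 fold change of -0.21 (nominal p 0.0213, FDR 0.484). *Vtn* is also a marker of mural cells. Of 3 tested *Igf2* mRNA-binding protein genes 0 passed.

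Of the receptor adaptors, which carry the signal from the receptors, 0 of 10 passed the nominal threshold, *Irs2* being at a log2 fold change of 0.09 and *Gab1* at -0.30 (nominal p 0.0981). In the PI3K-Akt-mTOR branch, *Pik3r1*, the regulatory subunit of the kinase, passed alone of 20 (0.19, nominal p 0.0437, FDR 0.584), and 15 of 20 log2 fold changes were above 0. In the Ras-MAPK branch 0 of 10 passed. Of 12 negative regulators, *Ptpn1*, a phosphatase of the insulin receptor, was higher (0.27, nominal p 0.0239, FDR 0.502), and *Inppl1*, a lipid phosphatase that opposes PI3K, was lower (-0.20, nominal p 0.0340, FDR 0.554).

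**Figure D5:**
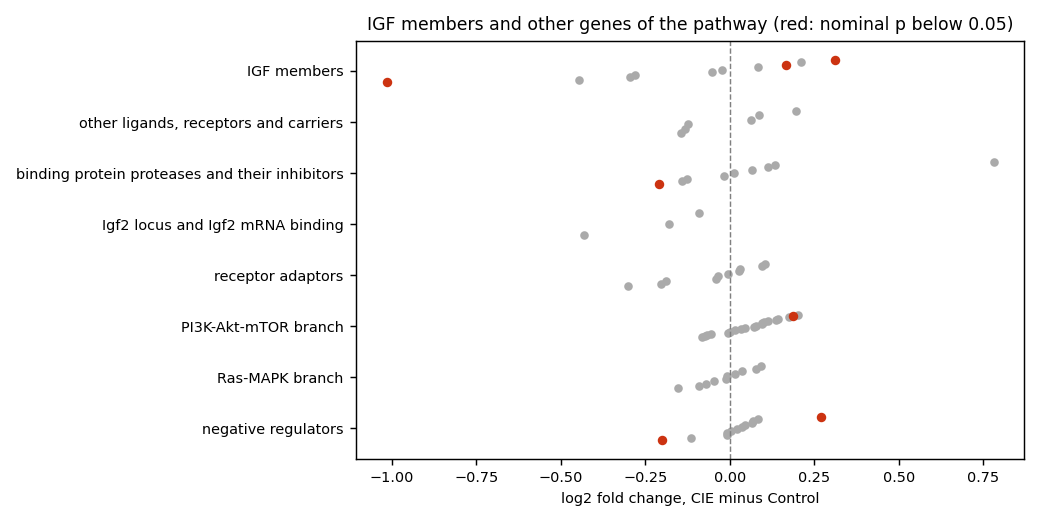
Log2 fold change (horizontal axis, CIE relative to Control) of the 10 IGF genes and of 70 other tested genes of the pathway, by list, with genes at a nominal p value below 0.05 in red. *Igf2*, at -1.02, lies farthest to the left, and the point at 0.78 is *Stc2*, an inhibitor of PAPP-A with 5 to 43 counts per rat (nominal p 0.106).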

How the data were processed

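Raw counts per gene were deposited for 12 CeA libraries. BWA alignment of the paired reads, on Rnor_6.0, and HTSeq were what the authors used to make them. BWA does not split reads at introns, and how junction reads were handled is not given in the sources used here. The annotation and the strand and overlap settings are not given in the sources used here, so reads of overlapping or antisense genes cannot be told apart. Blank lines were dropped and 37209 symbols remained, 7757 of them with 0 counts in every rat. Libraries of 1 group differed by at least 17.5 times the Poisson variance (mean over genes), so none was taken for a duplicate.

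Counts were normalized by TMM, filtered with filterByExpr and compared between CIE and Control with edgeR 4.0.16 in R 4.3.3, without covariates. The authors' processing notes name DESeq2 1.26. Here DESeq2 1.42.0 and limma-voom (limma 3.58.1) were alternatives, beside other normalizations and filters and each rat left out, 18 in all. The fits were tested on simulated data. SE is the absolute log2 fold change over the root of F. Exact permutation tests compared group mean CPM (scipy 1.17.1).

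The IGF genes, the 7 lists of pathway genes and the 10 marker lists were chosen with earlier results of these data known. Every IGF gene is named. Of each pathway list up to 4 genes with a nominal p value below 0.05 are named, and of each marker list 2, by smallest p. The 3 most correlated genes are named for each IGF gene at a nominal p value below 0.05. Other named genes, such as *Dcn*, *Gab1*, *Irs2*, *Stc2* and *Igfbp7*, were chosen after their values were seen. *Pappa2*, *Ly6c1*, *Slco1a4* and *Tac2* were not analysed here, as no row carried those symbols.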

Additional observations from a re-analysis of the deposited data

Results flagged for a closer look

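Among 28 groups of 6 values (the 10 IGF genes and 4 pathway genes with a nominal p value below 0.05, in both groups), 2 held a rat far from the others by Dixon's test at the 95% level. Chance flags about 1 in 20 groups. *Igfbp3* was at 7.78 CPM in CIE rat 1, where the other CIE rats reached at most 4.48 CPM. *Igfbp5* was at 26.6 CPM in CIE rat 6, where the other CIE rats reached at most 20.1 CPM, just past the critical value (gap over range 0.628 against 0.625).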

How the results depend on the processing

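*Igf2* passed 5% FDR in each of the 6 alternatives that kept all 12 rats (log2 fold change -1.16 to -0.995). With each rat left out in turn, 0 to 1 IGF genes passed 5% FDR and 2 to 4 had a nominal p value below 0.05, *Igf2* and *Igf1r* in every such fit. Where 0 passed 5% FDR in edgeR, 2 or 3 still had a nominal p value below 0.05. Limma-voom with sample quality weights gave 5 IGF genes at the nominal threshold, adding *Igf1* and *Igfbp2*, in a fit where 17.2% of all genes passed it. *Igf1r* kept its nominal p value below 0.05 under all 18 alternatives, while *Insr* lost it with library size only, without a filter, and kept it in 3 of the 12 fits with a rat left out. The direction turned for *Igfbp4* under limma-voom (0.17) and, with a rat left out, for *Igfbp3* (-0.016 to 0.29), *Igfbp4* (-0.13 to 0.11) and *Igfbp5* (-0.16 to 0.10). Over all genes, the number at 5% FDR was 76, against 273 with DESeq2, 234 with limma-voom and 34 to 154 with a rat left out, lowest without Control rat 9 and highest without CIE rat 6. The cause was not tested. The normalizations shifted the median log2 fold change of all genes by at most 0.02. No paired analysis was made, as no pairing between CIE and Control rats is given in the sources used here. *Igfbp6* and *Stc2* are limited by low counts. P values set the difference between the groups against the spread between rats within groups, for these 12 rats only.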
